A study of Rattus norvegicus with 12 samples.

Results

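The miR-200 family is a set of related microRNAs of epithelial cells. Its members in the deposited table were found by name, as the rows called miR-141, miR-200 or miR-429 with any letter added. This gave 3 of the 444 rows, Mir200b, Mir429 and Mir141. The rule itself uses names and no measured value. Mir200a and Mir200c, the other members of the family, had no row by this rule. Their levels are therefore not analysed here, and only their RefSeq sequences are used.

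MicroRNAs were sequenced in liver of male Sprague-Dawley rats, an outbred stock, with 3 libraries in each of 4 groups. The CAF group was given caffeine at 120 mg/kg, the DEX group dextromethorphan (as the hydrobromide monohydrate) at 100 mg/kg, the CAF+DEX group both drugs at these doses, and the Control group the sterile water in which the drugs were dissolved. All groups were dosed by mouth on 5 consecutive days from an age of 7 weeks, and liver was taken 1 h after the final dose. Each group had 5 rats. Which rat gave which library is not stated in the labels, so p-values measure the spread between these libraries, which may be technical.

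Family members are best known for repressing transcripts of Zeb1 and Zeb2, transcription factors that repress E-cadherin and other epithelial genes. In human and mouse cells the Zeb proteins in turn repress transcription of the family, so that each side holds the other down. In liver the family is known from the biliary epithelium, the lining of the bile ducts, and is scarce in hepatocytes. In pieces of whole liver, fewer cells of a type and less microRNA per cell cannot be told apart.

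The 3 hairpins are shown because the heptamer that binds target transcripts, the seed (bases 2 to 8 of the mature microRNA), splits the family in a pair of groups. Sequences are those of RefSeq (GRCr8), and each hairpin has the same length as its row in the deposited table. Of the mature microRNAs of the 3′ arm, miR-141-3p was matched directly. The seed of miR-200c-3p was searched in the hairpins. Capitals mark the seed in the mature sequences and the matching heptamer in the hairpins.
miR-141-3p: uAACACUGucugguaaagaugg
miR-200c-3p: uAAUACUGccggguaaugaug
Mir200b: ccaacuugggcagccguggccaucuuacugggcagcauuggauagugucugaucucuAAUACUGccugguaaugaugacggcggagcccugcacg
Mir429: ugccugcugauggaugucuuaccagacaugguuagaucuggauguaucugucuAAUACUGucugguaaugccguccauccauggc
Mir141: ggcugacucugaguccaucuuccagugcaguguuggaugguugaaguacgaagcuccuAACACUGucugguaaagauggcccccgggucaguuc

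The seeds of miR-141-3p and miR-200c-3p differed by the single substitution C4U, counted from 1 at the 5′ end with the base of miR-141-3p first. The hairpins of Mir200b and Mir429 held AAUACUG, at bases 58 to 64 and 54 to 60, and the hairpin of Mir141 held AACACUG at bases 59 to 65. Of 419 rat hairpins in the RefSeq table, 4 held AAUACUG (0.955%), those of Mir145, Mir200b, Mir200c and Mir429. Another 4 (0.955%) held AACACUG, those of Mir141, Mir200a, Mir3575 and Mir3587.

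The genomic order also splits the family. Mir429 (ENSRNOG00000035595, chromosome 5, 166647459 to 166647543, minus strand, rn7) and Mir200b (ENSRNOG00000035508, chromosome 5, 166649272 to 166649366, minus strand) lay 1728 bases apart. Mir141 (ENSRNOG00000035577, chromosome 4, 157523239 to 157523332, minus strand) lay on another chromosome. Among the rows analysed here, seed and chromosome split the same way, so they cannot be told apart. In the whole family the splits cross. Mir200c, with AAUACUG, lies on chromosome 4, and Mir200a, with AACACUG, lies near the chromosome 5 pair. RefSeq places Mir429, Mir200a and Mir200b within the span of a long noncoding RNA gene, LOC106182250, and of the protein-coding gene Ttll10. Exon and intron positions were not analysed here. Next to the members the deposited table lists Mir3548 (chromosome 5, 166648481 to 166648600, plus strand) and Mir3575 (chromosome 4, 157523652 to 157523766, plus strand), both at 0 in all 12 libraries.

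The RefSeq promoter window of LOC106182250 is shown because Mir200b and Mir429 lie in its span and varied together. They also lie in the span of Ttll10, whose window is not shown. From which start Mir200b and Mir429 are transcribed was not tested. The window shown is that of LOC106182250 only. It covers chr5:171935804-171936103 (GRCr8, minus strand), from 250 bases before the gene's start to 50 after it. Capitals mark CACCTG, the E-box that Zeb proteins bind, searched on both strands (reverse complement CAGGTG).
LOC106182250 promoter: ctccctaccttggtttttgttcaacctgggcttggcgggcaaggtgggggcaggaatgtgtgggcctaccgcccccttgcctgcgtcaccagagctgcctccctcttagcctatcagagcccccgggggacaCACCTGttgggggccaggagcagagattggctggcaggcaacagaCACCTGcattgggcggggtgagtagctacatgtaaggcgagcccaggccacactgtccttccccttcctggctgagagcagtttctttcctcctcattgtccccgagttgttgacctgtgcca

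The window held 2 matches that do not overlap, starting at positions -118 and -73 from the gene's start. Of 33469 rat promoter windows of this length, 18.8% held at least 1 match and 2.52% held at least 2. A match describes the letters and is not evidence of binding.

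The libraries held 2863572 to 3418568 reads on the listed features, recovered from the deposited FPKM (reads scaled by the length of the feature and by the library's reads on all listed features). The 12 libraries are called by their group and the number in the table's column header. Mir200b averaged 1710 reads per library, Mir429 942 reads and Mir141 577 reads, and each was above 0 in all 12. Together the 3 members took 0.0665 to 0.144% of reads. Hepatocyte markers, with 8 rows, took 35.9 to 39.7%, and 5 epithelial microRNAs outside the family took 0.0277 to 0.0667%. By FPKM, Mir200b ranked 79 to 94 among the 444 rows, Mir429 87 to 103 and Mir141 102 to 113.

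Mir200b, which represses Zeb1 and Zeb2 through the AAUACUG seed, was the most abundant of the 3 rows in every library. Its level was 6006, 3353 and 6635 FPKM in CAF libraries 1, 2 and 5, and 7919, 6738 and 4453 FPKM in DEX libraries 1, 2 and 4. It was 5268, 8191 and 3219 FPKM in CAF+DEX libraries 1, 2 and 5, and 3895, 7744 and 4965 FPKM in Control libraries 1, 3 and 4. CAF+DEX held both the highest and the lowest library of all 12, and all groups overlapped. The highest library of a group stood 1.98 times above the lowest in CAF, 1.78 times in DEX, 2.54 times in CAF+DEX and 1.99 times in Control. Group means were 5331 ± 1742 FPKM in CAF, 6370 ± 1762 in DEX, 5559 ± 2499 in CAF+DEX and 5535 ± 1987 in Control (SD, n = 3 each).

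Mir429 shares the seed of Mir200b. It stood at 3899, 2555 and 4078 FPKM in CAF libraries 1, 2 and 5, and at 4185, 4060 and 3212 FPKM in DEX libraries 1, 2 and 4. It stood at 3267, 4952 and 2206 FPKM in CAF+DEX libraries 1, 2 and 5, and at 2494, 4275 and 2880 FPKM in Control libraries 1, 3 and 4. The lowest and the highest library of each group were the same ones as for Mir200b, and the groups overlapped again. Means were 3511 ± 832 FPKM in CAF, 3819 ± 529 in DEX, 3475 ± 1385 in CAF+DEX and 3216 ± 937 in Control (SD, n = 3 each).

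Mir141 carries the other seed. It stood at 1610, 2213 and 2106 FPKM in CAF libraries 1, 2 and 5, and at 1298, 1534 and 2191 FPKM in DEX libraries 1, 2 and 4. It stood at 1677, 2611 and 1831 FPKM in CAF+DEX libraries 1, 2 and 5, and at 2171, 1942 and 2003 FPKM in Control libraries 1, 3 and 4. The Control libraries lay close together for this member and the DEX libraries far apart, with the lowest and the second lowest of all 12 values in DEX. Means were 1976 ± 322 FPKM in CAF, 1674 ± 463 in DEX, 2040 ± 501 in CAF+DEX and 2039 ± 118 in Control (SD, n = 3 each).

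**Figure D1:**
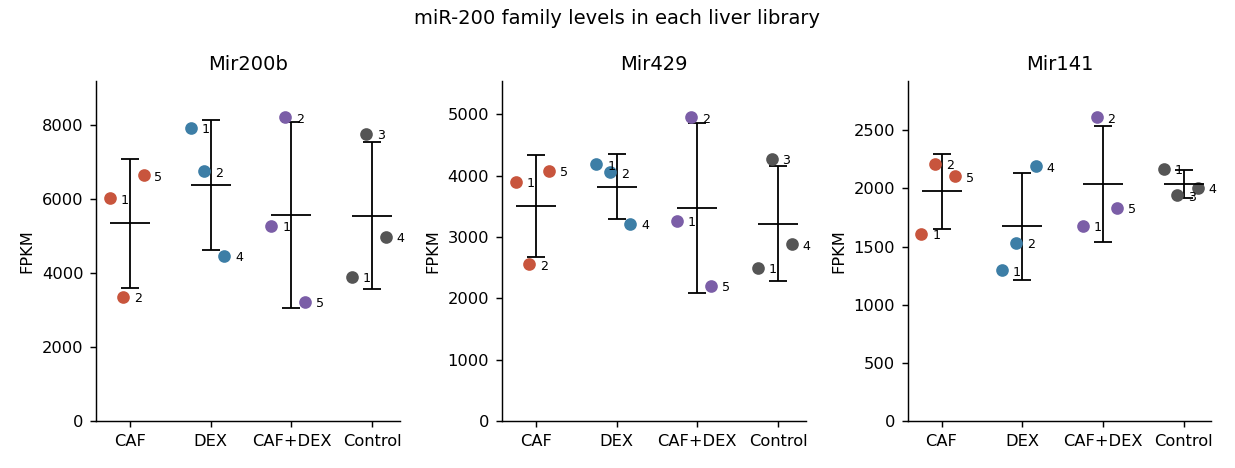
Level of Mir200b, Mir429 and Mir141 in each of the 12 liver libraries (vertical axis, FPKM, from 0), by group; points are libraries with their column number, long bars the group mean and error bars the SD (n = 3). Mir200b spans 3219 to 8191 FPKM, both ends in CAF+DEX, and the groups overlap for all 3 members.

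Reads of Mir141 were whole numbers (within 0.001 read) in 2 of 12 libraries, those of Mir429 in 6 and those of Mir200b in 10. Of all features above 0 in a library, 50.5 to 58.3% had whole reads. Fractions of a read arise where a read is divided among the features or places it matches. The counting settings are not known here. Part of each member's value may therefore be shared with other rows, in most libraries for Mir141. How large that part is was not tested. The spread of Mir200b was larger than counting error. Its share of reads was 0.0306% in CAF+DEX library 5 (exact binomial 95% interval 0.0287 to 0.0325%) and 0.0778% in CAF+DEX library 2 (0.0748 to 0.0809%). For Mir141 the share was 0.0122% in DEX library 1 (0.0110 to 0.0135%) and 0.0245% in CAF+DEX library 2 (0.0229 to 0.0263%). These intervals cover counting error only. Between libraries of a group, the chi-square of the reads per degree of freedom, which is near 1 for counting error alone, was 149 to 353 for Mir200b, 20.3 to 155.1 for Mir429 and 14.4 to 38.2 for Mir141 in the drug groups. In Control it was 223.4 for Mir200b, 76.7 for Mir429 and 2.12 for Mir141. The intervals and the chi-square take reads as independent. Whether copies of a molecule were collapsed is not given, so both may understate counting error.

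Summed over the 3 members, the level was 10818 ± 2425 FPKM in CAF, 11863 ± 1818 in DEX, 11074 ± 4314 in CAF+DEX and 10790 ± 2821 in Control (SD, n = 3 each). Within the family's reads, Mir429 kept a narrow share of 27.0 to 31.5% over the 12 libraries. Mir200b took 42.8 to 61.2% and Mir141 9.92 to 28.0%, with the lowest share of Mir141 in DEX library 1 and the highest in CAF library 2.

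Mir200b and Mir429 moved together from library to library, and no such relation was found for Mir141. Over the 12 libraries the log2 levels of Mir429 and Mir200b had Pearson r = 0.97 (permutation p = 2e-05, the smallest that 100000 resamples can give; adjusted over 13 relations 0.00026) and Spearman rho = 0.97 (permutation p = 2e-05, adjusted 0.00026). Without the 2 libraries farthest from the median of Mir200b, CAF library 2 and CAF+DEX library 5, r was 0.95. With each library set against the mean of its own group, r was 0.98.

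For Mir141 and Mir200b, Pearson r was -0.25 (permutation p = 0.436, adjusted 0.777) and Spearman rho was -0.25 (permutation p = 0.433, adjusted 0.734), with r = -0.23 without the same 2 libraries. For Mir141 and Mir429, r was -0.14 (permutation p = 0.667, adjusted 0.777) and rho was -0.14 (permutation p = 0.669, adjusted 0.734), with r = -0.12 without Control library 1 and CAF+DEX library 5. Both values of r depended on single libraries. Without CAF+DEX library 2, r was -0.57 for Mir141 and Mir200b and -0.50 for Mir141 and Mir429, and without DEX library 1 it was -0.036 and 0.020. CAF+DEX library 2 was the highest of all 12 for each member, while DEX library 1, the lowest for Mir141, was second highest for Mir200b.

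The ratio of Mir200b to Mir429 ran from 1.31 in CAF library 2 to 1.89 in DEX library 1, and the ratio of Mir200b to Mir141 from 1.52 to 6.10 in the same libraries. On the log2 scale the SD over 12 libraries was 0.48 for Mir200b, 0.37 for Mir429 and 0.28 for Mir141. It was 0.15 for the difference between Mir200b and Mir429 and 0.61 for that between Mir200b and Mir141. Of 175 features averaging at least 20 reads, Mir429 was the closest to Mir200b and Mir200b the closest to Mir429, before Mir185 at r = 0.73 and 0.72. For comparison, 64 pairs of features averaging at least 20 reads lay within 10000 bases of each other on a strand. Pairs sharing a microRNA number were left out, but this did not apply to let-7 rows. The median r of the 64 pairs was 0.56, and the pair of Mir200b and Mir429 had the second highest.

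**Figure D2:**
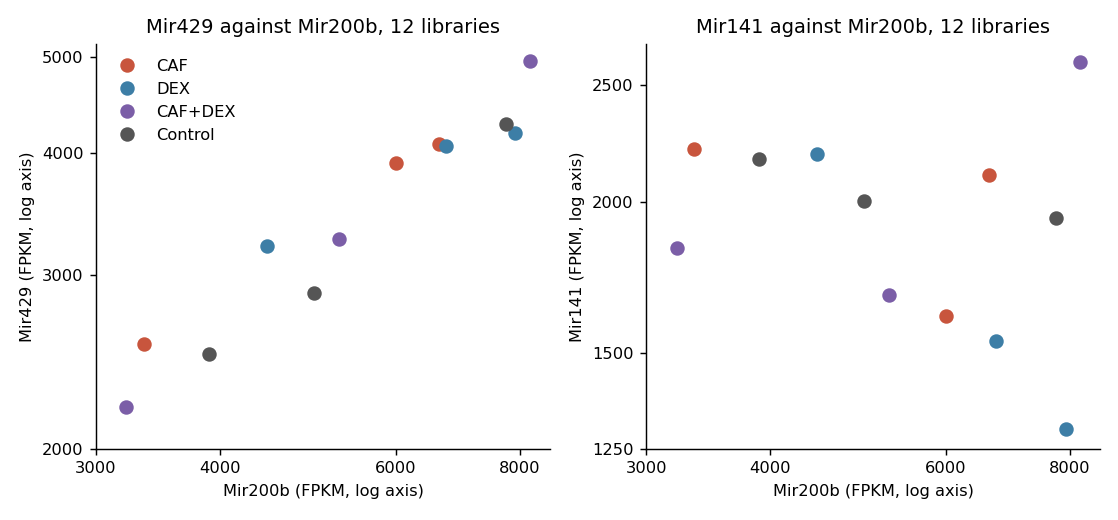
Mir429 (left) and Mir141 (right) against Mir200b, in FPKM on log axes; each point is a library, coloured by group. The points of Mir429 lie along a line (r = 0.97 on the log2 scale), and those of Mir141 scatter (r = -0.25).

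Libraries of a treatment group differed more in these microRNAs than in most others. The SD between libraries of a group, pooled over the 4 groups on the log2 scale, was 0.54 for Mir200b, 0.41 for Mir429 and 0.29 for Mir141, against a median of 0.11 over the 135 features averaging at least 100 reads. Mir200b ranked 3, Mir429 6 and Mir141 11 among these 135. Of the 24 other features within 2 times the reads of Mir200b, 0 had a larger spread and their median was 0.13. For Mir429 this was 3 of 28, and for Mir141 4 of 28. Mir96 ranked 2, Mir182 4 and Mir375 8, and these are epithelial microRNAs outside the family. Mir224 and Mir205, also epithelial, averaged 20.75 and 6.08 reads and so were not ranked. Mir1b, a microRNA of muscle, ranked 1, Mir3553 ranked 5, and Mir221, on the mesenchymal list below, ranked 7. The erythroid markers Mir144, rno-mir-486 and Mir451a ranked 9, 10 and 12. A wide spread was thus not particular to epithelial microRNAs.

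**Figure D3:**
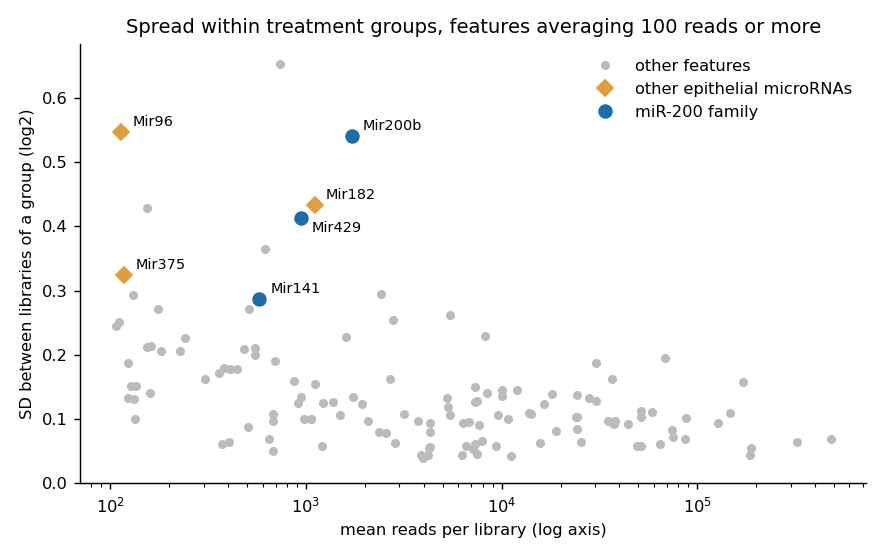
SD between libraries of a treatment group on the log2 scale (vertical axis) against mean reads per library (log axis) for the 135 features averaging 100 reads or more. Mir200b at 0.54, Mir429 at 0.41 and Mir141 at 0.29 lie above most features of similar depth, as do Mir96, Mir182 and Mir375. So do Mir1b, Mir221 and the erythroid markers Mir144, rno-mir-486 and Mir451a, drawn with the other features.

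Caffeine alone was compared with vehicle, to ask whether it moved the family in liver. None of the 3 members passed an adjusted p of 0.05 in limma, where 2 of the 293 features tested did (0.683%). Mir200b had a log2 fold change of -0.055 (SE 0.36, 95% interval -0.84 to 0.73, limma adjusted p = 0.989), Mir429 0.13 (SE 0.28, -0.47 to 0.74, adjusted p = 0.923) and Mir141 -0.057 (SE 0.20, -0.49 to 0.38, adjusted p = 0.964). Single libraries turned the sign of each: Mir200b was at 0.25 without CAF library 2 and 0.22 without Control library 3, Mir429 at -0.029 without Control library 1 and Mir141 at 0.084 without CAF library 1. The 2 features called were Mir142 and Mir146a, both leukocyte markers and both lower. The summed leukocyte markers took 1.75 to 2.16% of reads in CAF, against 2.64 to 2.998% in Control, and their part in the members' values was not tested. The groups overlapped for all 3 members, whereas all CAF libraries lay above all Control libraries in 6.48% of features and below them in 8.19%.

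Dextromethorphan alone was compared with vehicle, and 0 of 3 members passed. The 2 members of the chromosome 5 cluster had group means above Control and Mir141 a mean below it. Mir200b had a log2 fold change of 0.22 (SE 0.36, -0.56 to 1.00, limma adjusted p = 0.975) and Mir429 0.28 (SE 0.28, -0.33 to 0.88, adjusted p = 0.965). Mir141 had -0.32 (SE 0.20, -0.75 to 0.12, adjusted p = 0.841); its value without DEX library 4 was -0.53 and without DEX library 1 it was -0.15. Without Control library 1 the value of Mir200b was -0.0016. In limma 0 of 293 features passed (0%), with 13 at an unadjusted p under 0.05, and limma-voom called 0. The groups overlapped for all 3 members, against 6.83% of features with all DEX libraries above Control and 4.10% with all below.

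Both drugs together were compared with vehicle, and 0 of 3 members passed. Mir200b had a log2 fold change of -0.036 (SE 0.36, -0.82 to 0.75), Mir429 0.072 (SE 0.28, -0.53 to 0.68) and Mir141 -0.025 (SE 0.20, -0.46 to 0.41), each with a limma adjusted p of 1. The sign of each turned with single libraries. Mir200b was at 0.31 without CAF+DEX library 5 and 0.24 without Control library 3, and Mir429 at -0.22 without CAF+DEX library 2 and -0.092 without Control library 1. Mir141 was at 0.10 without CAF+DEX library 1, 0.039 without CAF+DEX library 5 and 0.021 without Control library 1. In limma 0 of 293 features passed (0%), with 30 at an unadjusted p under 0.05 and 0 by limma-voom. All 3 members overlapped, against 7.17% of features with all CAF+DEX libraries above Control and 7.51% with all below. The 3 comparisons with vehicle share the Control libraries.

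The combination was also compared with each drug alone, and 0 of 3 members passed in either. Against CAF, the log2 fold changes of CAF+DEX were 0.019 (SE 0.36, -0.76 to 0.80) for Mir200b, -0.062 (SE 0.28, -0.67 to 0.54) for Mir429 and 0.032 (SE 0.20, -0.41 to 0.47) for Mir141, each with a limma adjusted p of 0.988. Here too the signs turned with single libraries: without CAF+DEX library 2 Mir200b was at -0.31 and Mir141 at -0.16, and without CAF library 2 Mir200b was at -0.29. Without CAF library 1 Mir429 was at 0.028 and Mir141 at -0.11, and Mir429 was at 0.061 without CAF library 5 and 0.23 without CAF+DEX library 5. Against DEX they were -0.26 (SE 0.36, -1.04 to 0.52, limma adjusted p = 0.886) for Mir200b, -0.20 (SE 0.28, -0.81 to 0.40, adjusted p = 0.886) for Mir429 and 0.29 (SE 0.20, -0.15 to 0.73, adjusted p = 0.776) for Mir141. Without CAF+DEX library 5, Mir200b was at 0.085 and Mir429 at 0.084 against DEX. In limma 0 of 293 features passed in each (0%), with 15 at an unadjusted p under 0.05 against CAF and 23 against DEX, and limma-voom called 0 in each. All 3 members overlapped in both comparisons. All CAF+DEX libraries lay above all CAF libraries in 3.41% of features and below in 3.75%, and above all DEX libraries in 4.78% and below in 8.87%.

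The interaction, the log2 fold change of dextromethorphan with caffeine minus that without, was -0.20 (SE 0.51, -1.31 to 0.90) for Mir200b, -0.34 (SE 0.39, -1.19 to 0.52) for Mir429 and 0.35 (SE 0.29, -0.27 to 0.97) for Mir141, each with a limma adjusted p of 0.991. For Mir200b it was 0.14 without CAF+DEX library 5 and 0.020 without Control library 1. In limma 0 of 293 features passed (0%), with 16 at an unadjusted p under 0.05 and 0 by limma-voom. Pooling the 6 libraries with caffeine against the 6 without gave -0.16 (SE 0.25, -0.71 to 0.40) for Mir200b, -0.035 (SE 0.20, -0.46 to 0.39) for Mir429 and 0.12 (SE 0.14, -0.19 to 0.43) for Mir141, with limma adjusted p of 0.884, 0.957 and 0.792. Here 0 of 3 members and 2 of 293 features passed (0.683%), again Mir142 and Mir146a. Without CAF+DEX library 5 Mir200b was at 0.015 and Mir429 at 0.11. Mir429 was also above 0 without CAF library 2 (0.072), without Control library 3 (0.077) and, at 0.000635, when DEX library 1 was left out. The same pooling for dextromethorphan gave 0.12 (SE 0.25, -0.43 to 0.67), 0.11 (SE 0.20, -0.32 to 0.53) and -0.14 (SE 0.14, -0.45 to 0.17) in the same order, with limma adjusted p of 0.958, 0.958 and 0.943. Without CAF+DEX library 2 Mir200b was at -0.045 and Mir429 at -0.040, and without CAF library 2 Mir200b was at -0.032. In limma 0 of 293 features passed (0%), with 22 at an unadjusted p under 0.05 and 0 by limma-voom. A moderated F test over all 4 groups called 0 members and 1 of 293 features (0.341%). The members' limma adjusted p in it were 0.985 for Mir200b, 0.968 for Mir429 and 0.832 for Mir141.

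**Figure D4:**
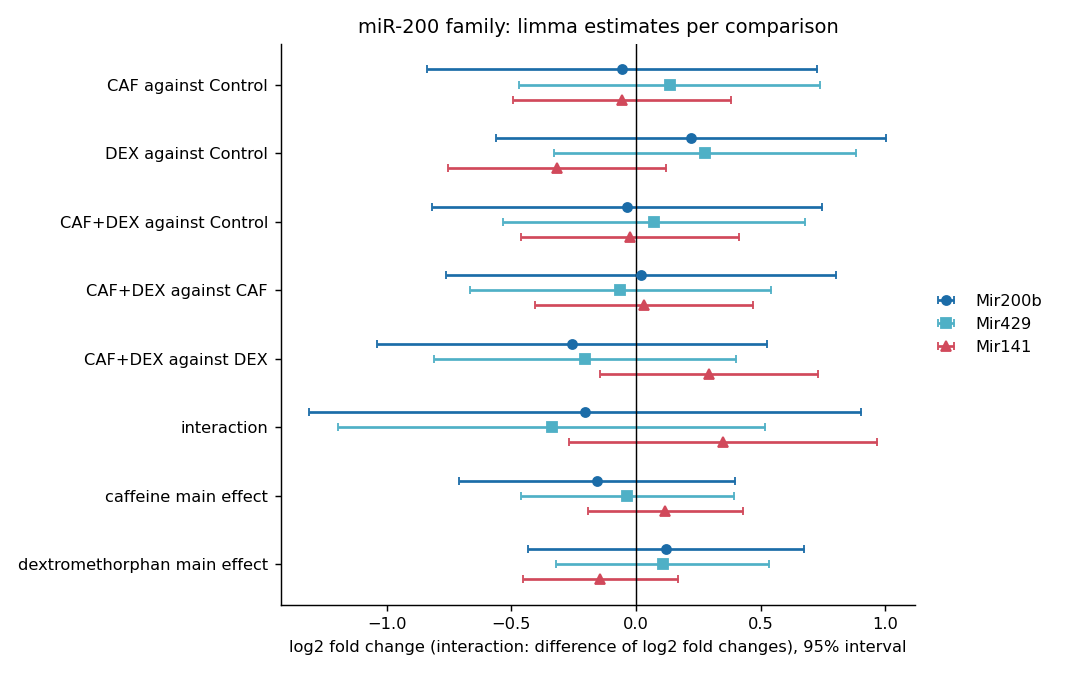
Log2 fold changes (horizontal axis) of Mir200b, Mir429 and Mir141 in 8 limma contrasts of the 12 libraries, with 95% intervals. All intervals cross 0, and those of Mir200b are the widest, from -0.84 to 0.73 in CAF against Control.

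Other epithelial microRNAs were set beside the family. Of 8 microRNA numbers listed, 5 had a row, Mir182, Mir96, Mir375, Mir224 and Mir205. Of these 5, 0 passed in any of the 8 contrasts, beside 0 to 0.683% of all features. Mir182 and Mir96 belong to a cluster that is best known from sensory epithelia, and Mir375 is known from endocrine and gut epithelium. The list's median log2 fold change was 0.12 in CAF against Control, -0.00017 in DEX against Control and 0.069 in CAF+DEX against Control, beside 0.0023, 0.0039 and -0.0089 over all features. These comparisons share the Control libraries, and 4, 2 and 4 of the 5 were higher. In CAF+DEX against DEX 5 were higher, by 0.069 to 0.82, and in CAF+DEX against CAF 3 were higher and 2 lower. Mir224 had the largest change of the list, 0.88 in CAF+DEX against Control (95% interval 0.0018 to 1.76, limma adjusted p = 0.480). Its caffeine main effect was 0.76 (0.13 to 1.38, limma adjusted p = 0.247). Of the 5, Mir224 averaged only 20.75 reads per library and Mir205 6.08. Mir182, the most abundant of the list, stood at 5951 ± 1140 FPKM in CAF, 5118 ± 686 in DEX, 5810 ± 2551 in CAF+DEX and 5640 ± 1888 in Control (SD, n = 3 each). Mir375, the next, ran from 425 to 587 FPKM in CAF, 369 to 647 in DEX, 411 to 685 in CAF+DEX and 399 to 533 in Control.

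As a description over the same 12 libraries, Mir375 had r = 0.63 with Mir200b, 0.63 with Mir429 and -0.053 with Mir141 on the log2 scale. Mir182 had 0.42, 0.52 and 0.43, and Mir96 0.40, 0.53 and 0.47, with the same 3 members. All 6 microRNAs lay above their own means in CAF+DEX library 2, from 0.46 for Mir141 to 0.88 for Mir96 on the log2 scale. They also did so in Control library 3, from 0.031 for Mir141 to 0.512 for Mir200b. All 6 lay below their means in CAF+DEX library 5, from -0.053 for Mir141 to -0.755 for Mir200b. The same held in CAF+DEX library 1, from -0.04 for Mir96 to -0.249 for Mir375. In CAF library 2 they parted, with Mir200b at -0.70 and Mir429 at -0.41 while Mir96 was at 0.50 and Mir182 at 0.41.

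**Figure D5:**
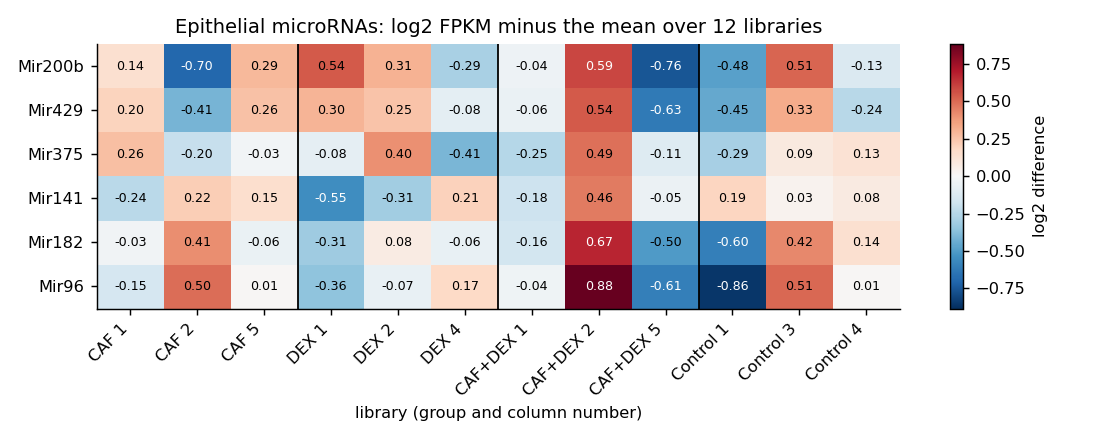
Log2 FPKM of 6 epithelial microRNAs (rows) in each library (columns, by group) minus the microRNA's mean over 12 libraries. Mir224 and Mir205 are not shown. CAF+DEX library 2 and Control library 3 are above the mean in all 6 rows, and CAF+DEX libraries 1 and 5 are below it. CAF library 2 is below the mean for Mir200b, Mir429 and Mir375 and above it for Mir141, Mir182 and Mir96.

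Mesenchymal microRNAs, usually set against the miR-200 family when epithelial cells take on mesenchymal features, had 9 rows tested. In each of the 8 contrasts 0 of the 9 passed, beside 0 to 0.683% of all features. Their median log2 fold change was 0.040 in CAF against Control, 0.038 in DEX against Control and 0.062 in CAF+DEX against Control. Single values ran from -0.61 (Mir155, also a leukocyte marker) to 0.48, from -0.073 to 0.14 and from -0.35 to 0.20 in the same order. The most abundant were Mir21, known from injury and growth, at a mean of 586998 FPKM over all libraries, and Mir143, a microRNA of smooth muscle and stellate cells, at 206568 FPKM.

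Levels of other cell types' markers were set beside the members by library. The summed share of reads was 35.9 to 39.7% for hepatocyte markers, 2.11 to 3.16% for stellate and smooth muscle markers, 1.75 to 2.998% for leukocyte markers and 0.0602 to 0.122% for erythroid markers. Leukocyte markers took 1.97 to 2.41% in CAF+DEX and 2.60 to 2.98% in DEX, beside the values of CAF and Control above. Markers of pancreas and neurons took 0.265 to 0.368%. Nearly all of this was Mir7-1, which averaged 10056 reads per library, against 118 for Mir375 and 13.75 for Mir9. The 3 Mir124 copies among them averaged 0.055 reads each and were above 0 in 2 libraries. The endothelial marker Mir126a averaged 15.2 reads. The mean log2 level of the hepatocyte list had r = -0.49 with Mir200b (permutation p = 0.115, adjusted 0.748) and rho = -0.43 (permutation p = 0.163, adjusted 0.734). This r was -0.15 without CAF library 2 and CAF+DEX library 5. With the other 4 lists Mir200b had r between -0.13 and 0.30, and Mir141 had r between -0.16 and 0.22 with all 5 (each adjusted permutation p 0.777). Some of these turned sign without the 2 libraries farthest from the median: for Mir200b, r with leukocyte markers was then -0.034 and with erythroid markers -0.31, and with the endothelial marker 0.042. For Mir141, r over the 5 lists then ran from -0.35 to 0.25 with no change of sign. The part of these markers in the spread of the members was not tested.

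The 5 features whose levels followed the mean of the 3 members most closely over the 12 libraries, of 173 others averaging at least 20 reads, were Mirlet7i (Pearson r = 0.74, Spearman rho = 0.67), Mir185 (0.70 and 0.63), Mir148b (0.67 and 0.51), Mir98 (0.67 and 0.56) and Mir3553 (0.64 and 0.38). They were taken as the highest of 173, so no p is given. Mir185 followed Mir200b and Mir429 (r = 0.73 and 0.72) and not Mir141 (r = -0.11), while Mir148b, which is also on the hepatocyte list, had its highest r with Mir141 (0.60). Mir141 alone was closest to Mir218-2 (r = 0.74) and Mir181c (r = 0.64), and farthest from Mir455 (r = -0.72).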

How the data were processed

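Small RNA libraries were made with the QIAseq miRNA kit, per the labels' protocols. The kit tags molecules with unique indices; their collapsing and the counting settings are not given in the sources read. The submitters' processing notes name cutadapt 3.7, STAR 2.7.11b, featureCounts of Subread 2.0.6 and build rn7, without parameters. The authors deposited FPKM values for 444 features, which are scaled to reads on these features. Library totals were recovered as the numbers that turn every value into a multiple of 0.01 read. The column numbers could be matched to a group and not to a sample title.

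Features above 0 in at least 3 of 12 libraries (293) were tested as log2(FPKM + 3.797), the pseudocount being the 10th percentile of values above 0. This scale understates changes of rare features. A limma-trend model (limma 3.58.1, R 4.3.3) had 4 group means. Benjamini-Hochberg adjustment ran over the 293 features of each contrast with a threshold of 0.05. Correlations used log2 levels, and two-sided p-values from 100000 permutations (scipy 1.17.1) were adjusted over 13 relations. Motif and seed searches read RefSeq tables of GRCr8, and no coordinates were moved between builds.

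All members were named in every comparison. Others were named as the 5 most alike in pattern, or as the 2 most abundant of a list. Mir96, Mir1b, Mir142, Mir146a, Mir155, Mir181c, Mir218-2, Mir221, Mir224, Mir455 and rno-mir-486 were added after their values were seen. The members and lists were chosen with earlier results of these data known. Alternatives were 2 pseudocounts, 2 filters, 2 scalings, limma-voom on recovered reads, a fit of only the libraries compared, a replicate block and leaving out each library.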

Additional observations from a re-analysis of the deposited data

How the results depend on the processing

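No member passed the threshold in any contrast under any setting (0 of 495 alternative values, lowest limma adjusted p 0.481), and 40 of these 495 values changed sign. With quantile normalization the log2 fold change of Mir141 was 0.14 in CAF against Control, 0.12 in CAF+DEX against Control and -0.0189 in CAF+DEX against CAF, where Mir200b was -0.062 and Mir429 0.00560, and Mir429 was 0.019 for the caffeine main effect. The column numbers gave a replicate block, under which Mir200b was 0.18 in CAF against Control and 0.20 in CAF+DEX against Control and Mir429 0.10 for the caffeine main effect. The labels name no pairing by these numbers. Deviations of same-numbered libraries correlated at -0.13 to 0.10 over 11 pairs, and 0 of 11 libraries correlated best with its own number. With 3 libraries per group, such correlations cannot show that the libraries are unpaired. The cause of the changes of sign was not tested.

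Leaving out each library gave Mir200b -0.28 to 0.25, Mir429 -0.029 to 0.36 and Mir141 -0.15 to 0.084 in CAF against Control. In DEX against Control the ranges were -0.0016 to 0.49, 0.11 to 0.50 and -0.53 to -0.15. In CAF+DEX against Control they were -0.37 to 0.31, -0.22 to 0.36 and -0.22 to 0.10, against CAF -0.31 to 0.36, -0.36 to 0.23 and -0.16 to 0.16, and against DEX -0.59 to 0.085, -0.50 to 0.084 and 0.10 to 0.50. For the interaction they were -0.53 to 0.14, -0.63 to -0.050 and 0.16 to 0.56, for the caffeine main effect -0.32 to 0.015, -0.18 to 0.11 and 0.022 to 0.22, and for the dextromethorphan main effect -0.045 to 0.29, -0.040 to 0.25 and -0.25 to -0.060. The r of Mir429 and Mir200b was 0.957 to 0.974 with a library left out. That of Mir141 and Mir200b moved between -0.574 (CAF+DEX library 2 left out) and -0.036 (DEX library 1), and that of Mir141 and Mir429 between -0.502 and 0.020, a change of sign, for the same libraries; these alternatives were chosen after seeing the data.

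Counts of all features called moved more. CAF against Control had 0 with no filter, with the 6 libraries compared alone and under the replicate block, 4 with quantile normalization, and 0 to 10 with a library left out (10 when CAF library 1 was left out, 5 for Control library 4, 4 for CAF+DEX library 1, 1 for DEX library 2, and 0 for CAF libraries 2 and 5 and Control libraries 1 and 3). The caffeine main effect had 5 with the larger pseudocount, 10 with the stricter filter, 5 with quantile normalization, 11 with median-ratio scaling, 4 with limma-voom, 0 under the replicate block and 1 to 10 with a library left out (10 when CAF library 1 was left out, 8 for CAF+DEX library 1, 6 for CAF+DEX library 2, and 1 for CAF library 2 and for Control library 3). CAF+DEX against Control had 2 with the larger pseudocount and 1 with quantile normalization, CAF+DEX against DEX 1 with quantile normalization and 0 to 1 with a library left out, and DEX against Control 1 under the replicate block and 0 to 1 with a library left out. The interaction had 0 to 1 with a library left out. The F test had 0 with no filter and under the replicate block, and 0 to 4 with a library left out. Precision is limited by 3 libraries per group: the interval of Mir200b in CAF against Control ran from -0.84 to 0.73 on the log2 scale.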
